A study of Caenorhabditis elegans with 2 samples.

Results

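The mitochondrial genome of the nematode Caenorhabditis elegans gave 36 transcripts of the 56374 listed in the deposited tables. They were taken as the entries that the tables put in the class mitochondria, a rule that uses no measured value. The 36 are 12 protein-coding transcripts, 2 ribosomal RNAs and 22 transfer RNAs. The data are small RNAs of 20 to 30 nt that were recovered with NRDE-3, an Argonaute protein, from embryo lysates. With 1 library in each group the conditions could not be tested. No p-value is given, and intervals cover counting error only.

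Both strains carried 3xflag::gfp::nrde-3 and were kept at 20 °C, and the tagged protein was pulled down with anti-FLAG M2 antibody. N2 animals grown on OP50 bacteria gave the wild-type library. The RNAi library came from eri-1(mg366);dpy-13(e458) animals whose larvae were placed on bacteria for dpy-13(RNAi). ERI-1 is an exonuclease of the endogenous small RNA pathways, and dpy-13 encodes a collagen of the cuticle. Genotype, food and library preparation changed together and cannot be told apart. No library made without the tag or without the pull-down was analysed here, so RNA held by NRDE-3 and RNA carried along with the beads cannot be told apart. Nor can fewer mitochondria or cells be told apart from less RNA in each.

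Mitochondria keep a small circular genome of their own. In animals it encodes subunits of the respiratory chain and of ATP synthase, together with the ribosomal and transfer RNAs that the organelle needs to translate them. All its genes in C. elegans lie on the same strand and are copied by a mitochondrial RNA polymerase into long precursors, which are then cut at the transfer RNAs. NRDE-3 is known for another kind of RNA: it binds 22G-RNAs, which RNA-dependent RNA polymerases make in the antisense direction from target transcripts, and takes them into the nucleus of somatic cells.

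Counted reads numbered 7693320 (wild type) and 5537671 (RNAi). Levels are given as RPM, sense reads per 1000000 counted reads of both strands. The class of mitochondrial transcripts held 2712 sense reads in the wild-type library, or 0.0353% of counted reads (exact 95% interval 0.0339 to 0.0366). It held 6192 in the RNAi library, or 0.112% (0.109 to 0.115). The 8 microRNAs of the mir-35 family, which mark embryos, summed to 2546 and 12571 sense reads, and 4 microRNAs of later stages (let-7, lin-4, mir-84 and mir-241) to 2 and 21. Antisense reads on dpy-13, the RNAi target, numbered 1 (wild type) and 115 (RNAi).

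Antisense reads were almost absent from mitochondrial transcripts. In the wild-type library 1 antisense read stood beside 2712 sense reads, a share of 0.0369% (0.000933 to 0.205). The RNAi library had 1 beside 6192, a share of 0.0161% (0.000409 to 0.0899). The wild-type read lay on MTCE.15, a transfer RNA with 0 sense reads in that library. Its gene shares 28 bases with that of MTCE.16, which encodes ND2, a subunit of complex I. The RNAi read lay on MTCE.21, which encodes CYTB, the cytochrome b of complex III, beside 83 sense reads. All 36 genes lie on the plus strand in the WBcel235 annotation, where 0 genes are annotated on the minus strand of the mitochondrial genome.

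The transcripts with more reads showed the same. Of the 12 mitochondrial transcripts with 10 or more sense reads in the wild-type library, 12 had no antisense read, against 38.3% of the 5000 transcripts of any class with as many. In the RNAi library 15 of 16 had none, against 12.9% of 8510. With 100 or more sense reads, 2 of 2 had none in the wild-type library against 21.3%, and 4 of 4 in the RNAi library against 10.3%.

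Nuclear genes whose proteins work in mitochondria gave a contrast of the same pathway. The list held 124 such genes: subunits of the respiratory complexes and ATP synthase, mitochondrial ribosomal proteins, import factors and chaperones, and factors of mitochondrial DNA upkeep and expression. Their reads were 1814 sense and 137 antisense in the wild-type library, an antisense share of 7.02% (5.93 to 8.25). In the RNAi library they were 3643 and 1196, a share of 24.7% (23.5 to 26.0). The 12 protein-coding mitochondrial transcripts had 194 sense and 0 antisense reads in the wild-type library, which allows a share of up to 1.55% when 3 reads are taken as the limit for a count of 0 (exact upper bound 1.88%). At the share of the nuclear list 13.6 antisense reads would have been counted. In the RNAi library they had 612 sense reads and 1 antisense read, where that share would have given 152. That is a share of 0.163% (0.00413 to 0.906). In both libraries the interval of the nuclear list lay above the whole range that the mitochondrial counts allow.

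Antisense reads were found for most nuclear genes of the list in the RNAi library, 120 of 124, beside 27.4% of all genes and 51.2% of protein-coding genes. In the wild-type library it was 62 of 124, beside 16.3% and 31.0%. The backgrounds count all genes whether or not they had reads, while 123 of the 124 had a read. By share of reads the list, at 7.02% and 24.7%, lay below the class of protein-coding transcripts, at 76.7% and 46.9%. The antisense share differed among the groups of the list. The mitochondrial ribosomal proteins had 42 antisense beside 244 sense reads in the wild-type library and 551 beside 629 in the RNAi library, or 46.7% (43.8 to 49.6). The nuclear subunits of ATP synthase had 30 beside 673 and 148 beside 1126, or 11.6% (9.91 to 13.5). The lowest group in both libraries was complex II, the succinate dehydrogenase, with 3.19% (0.663 to 9.04) and 11.2% (7.57 to 15.8). In the wild-type library this interval reached below both limits of the protein-coding mitochondrial transcripts. So did that of complex III with cytochrome c, at 3.92% (1.45 to 8.34).

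**Figure D1:**
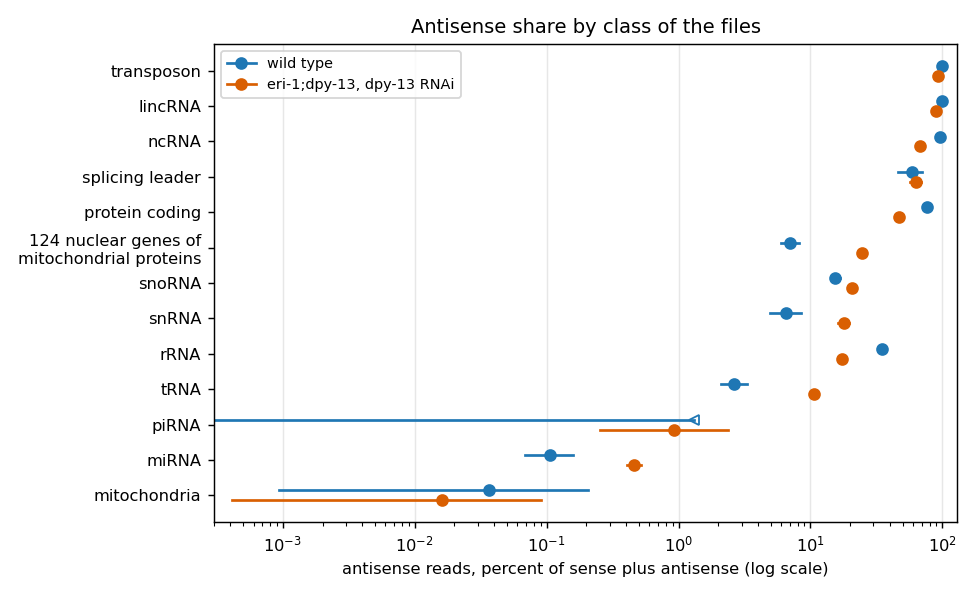
Antisense reads as a percentage of sense plus antisense reads (log axis) for each class of the tables and for the 124 nuclear genes of mitochondrial proteins, in the wild-type (blue) and RNAi (orange) library. Points are the shares, lines the exact 95% intervals, and the open triangle is the upper bound for piRNAs, which had 0 antisense reads in the wild-type library. Mitochondrial transcripts, at 0.0369% and 0.0161%, have the lowest share above 0 in both libraries.

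Other classes spanned a wide range. Protein-coding transcripts had antisense shares of 76.7% (wild type) and 46.9% (RNAi), and long intergenic RNAs of 99.9% and 90.02%. Sense reads on microRNAs were accompanied by 0.106% antisense reads in the wild-type library, inside the interval of the mitochondrial share, and by 0.462% in the RNAi library, above it. The tables' class of transfer RNAs had 2.64% and 10.7% antisense reads. The 22 mitochondrial transfer RNAs had 1 antisense read among 60, or 1.67%, in the wild-type library, too few reads to set the kinds of transfer RNA apart. In the RNAi library they had 0 among 619, which allows up to 0.485% by the limit of 3 reads and 0.594% by the exact interval. Most of these reads, 476, lay on MTCE.9. The other 21 had 0 antisense beside 143 sense reads, an exact upper bound of 2.55%. The 2 mitochondrial ribosomal RNAs had 0 antisense reads beside 2459 and 4961 sense reads, which allows up to 0.122% and 0.0605% by the limit of 3 reads, and 0.1499% and 0.0743% by the exact interval. The tables' ribosomal RNA class had 34.6% and 17.4% antisense reads, spread unevenly over its 24 entries. The 17 entries picked for more sense than antisense reads in both libraries held 3972924 of its 3973195 wild-type sense reads. Their antisense share was 0.0684% in the wild-type library, below the exact bound of the mitochondrial pair. In the RNAi library it was 0.579%, above that bound. These entries were picked by the same strand counts, so a low share was partly fixed in advance and no contrast is drawn from it.

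The sense reads themselves came mainly from the ribosomal RNAs, the RNA components of the mitochondrial ribosome. MTCE.33, the longer of the pair (mitochondrial genome, positions 10403 to 11354), had 1456 wild-type and 3441 RNAi sense reads, or 189 and 621 RPM. MTCE.7 (positions 898 to 1593), the shorter, had 1003 and 1520, or 130 and 274 RPM. Outside the ribosomal RNA class MTCE.33 ranked number 7 of all transcripts by sense reads in the wild-type library and number 8 in the RNAi library, and MTCE.7 ranked number 9 and number 22. The pair made up 90.7% (89.5 to 91.7) of wild-type and 80.1% (79.1 to 81.1) of RNAi mitochondrial sense reads.

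By RPM both ribosomal RNAs were higher in the RNAi library, by different factors. The ratio of RPM, RNAi over wild type, was 3.28 for MTCE.33 (exact 95% interval 3.09 to 3.49) and 2.11 for MTCE.7 (1.94 to 2.28). The direction rests on the scaling. MTCE.7 was lower in the RNAi library with edgeR's TMM factors, at 0.8001 (0.738 to 0.867), with median-of-ratios, at 0.758, and with microRNA sense reads, at 0.611. MTCE.33 was at 1.25 (1.17 to 1.33) with TMM and at 0.952 (0.895 to 1.01) with microRNA sense reads. For every 100 reads on MTCE.33 there were 68.9 on MTCE.7 in wild type and 44.2 in the RNAi library. This balance needs no scaling of the libraries. It changed by a factor of 0.641 (0.580 to 0.709).

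**Figure D2:**
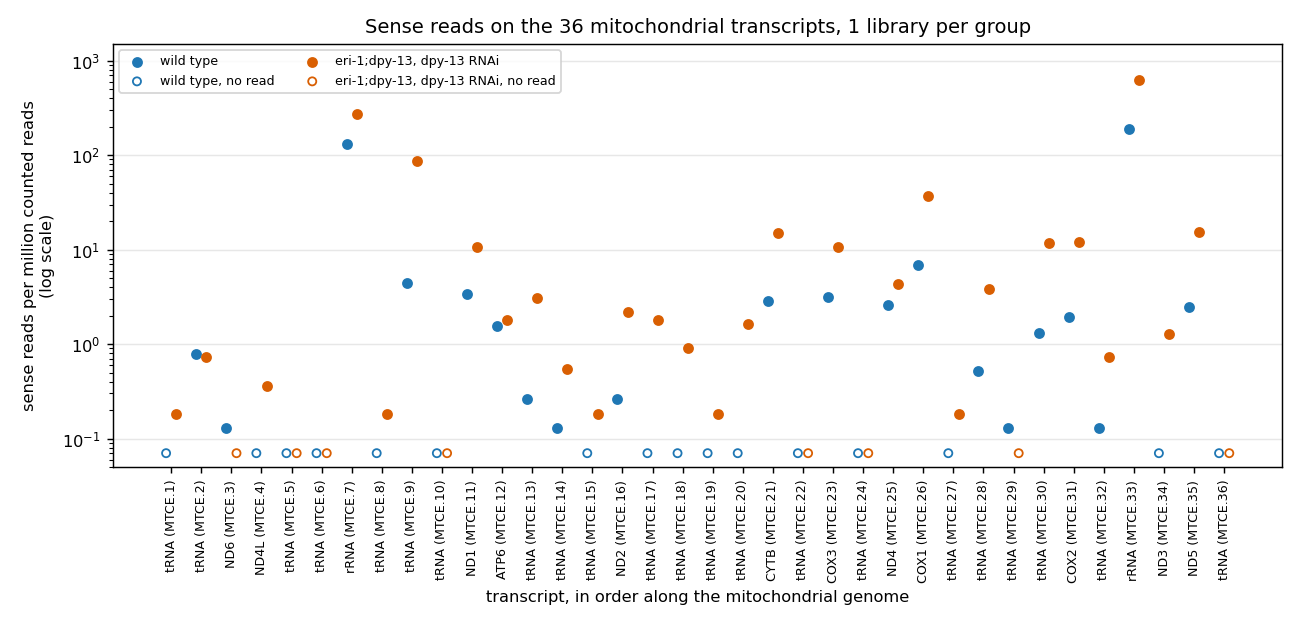
Sense RPM (log axis) of each of the 36 mitochondrial transcripts, in order along the mitochondrial genome, in the wild-type (blue) and RNAi (orange) library. Filled points are measured values, and open points at the bottom mark transcripts with 0 reads. The ribosomal RNAs MTCE.7 and MTCE.33 stand highest, and the transfer RNA MTCE.9 lies at 4.42 and 86.0 RPM between neighbours with at most 1 read.

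The protein-coding transcripts had far fewer reads. The 12 of them summed to 194 wild-type and 612 RNAi sense reads, a ratio of 4.38 (3.72 to 5.18). Per kilobase of annotated length, their pooled level was 2.42 RPM and 10.6 RPM, against 194 and 544 for the ribosomal RNAs. The ribosomal RNAs were therefore 80.3-fold and 51.4-fold above them per kilobase.

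Among them, the subunits of complex IV, cytochrome c oxidase, held the most reads. COX1 (MTCE.26), the catalytic subunit, had 53 wild-type and 204 RNAi sense reads. That is 6.89 and 36.8 RPM, at a ratio of 5.35 (3.94 to 7.38). COX2 (MTCE.31) had 15 and 67, a ratio of 6.21 (3.51 to 11.7). COX3 (MTCE.23) had 24 and 59, a ratio of 3.42 (2.09 to 5.74). COX1 was the highest protein-coding transcript per kilobase in both libraries. In the wild-type library its 4.30 RPM per kilobase (exact Poisson interval 3.22 to 5.62) did not stand apart from COX3, at 4.04, and ND1, at 3.87. Nor did it stand apart from COX2, at 2.79 (1.56 to 4.59). In the RNAi library the COX1 interval, 19.9 to 26.4, lay above those of COX3 and ND1 but overlapped that of COX2, at 17.3 RPM per kilobase (13.4 to 22.0). Such intervals were computed only for COX1, COX2, COX3 and ND1. CYTB, the subunit of complex III, had 22 and 83 sense reads, a ratio of 5.24 (3.24 to 8.81).

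The 7 subunits of complex I, the NADH dehydrogenase, summed to 68 and 189 sense reads, a ratio of 3.86 (2.91 to 5.17). ND5 (MTCE.35) had 19 and 85, a ratio of 6.22 (3.75 to 10.8). ND1 (MTCE.11) had 26 and 59, a ratio of 3.15 (1.96 to 5.21). ND4 (MTCE.25) had 20 and 24, and its ratio of 1.67 (0.883 to 3.18) was within counting error of equal levels.

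The remaining complex I transcripts were close to the limit of detection. ND2 (MTCE.16) had 2 and 12 sense reads, a ratio of 8.34 (1.86 to 76.7). ND3 (MTCE.34) had 0 and 7, at least 3.24-fold higher in the RNAi library when a count of 0 is set to 3 reads. ND4L (MTCE.4) had 0 and 2 reads and ND6 (MTCE.3) had 1 and 0. ATP6 (MTCE.12), the single ATP synthase subunit among the 12, had 12 and 10 sense reads, a ratio of 1.16 (0.448 to 2.92). The ATP6 interval lay below the ratio of 3.17 of the whole class, while those of CYTB, COX1, COX2 and ND5 lay above it.

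The largest difference in reads between the libraries outside the ribosomal RNAs was on a single transfer RNA. MTCE.9 (positions 1648 to 1702) had 34 wild-type and 476 RNAi sense reads, or 4.42 and 86.0 RPM. The ratio was 19.4 (13.7 to 28.4). Its interval lay above those of 11 of the other 16 transcripts with 10 or more reads. It overlapped those of MTCE.13, MTCE.16, MTCE.17, MTCE.28 and MTCE.30, which had 0 to 10 wild-type reads. Neither annotation used here names the amino acid that it carries. Per kilobase MTCE.9 ranked number 1 of the 36 in the RNAi library, at 1563 RPM, ahead of MTCE.33 at 653. In the wild-type library it was number 3, at 80.4 RPM, behind both ribosomal RNAs.

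Its neighbours did not share this level. MTCE.8, the transfer RNA between MTCE.7 and MTCE.9, had 0 and 1 sense reads, and MTCE.10, which follows, had 0 and 0. MTCE.9 held 57.6% (44.1 to 70.4) of wild-type and 76.9% (73.4 to 80.2) of RNAi reads on mitochondrial transfer RNAs.

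The other transfer RNAs were thinly covered. MTCE.30 (positions 9593 to 9647) had 10 and 65 sense reads, a ratio of 9.03 (4.61 to 19.7). MTCE.28 had 4 and 21, a ratio of 7.29 (2.46 to 29.2). MTCE.13 had 2 and 17, a ratio of 11.8 (2.80 to 105). MTCE.2 had 6 and 4, a ratio of 0.926 (0.192 to 3.91) that does not separate the libraries. MTCE.17 had 0 and 10 reads and MTCE.20 had 0 and 9. With 0 set to 3 reads they were 4.63-fold and 4.17-fold higher in the RNAi library. The exact lower bounds, which include the counting error of the RNAi reads, were 3.11 and 2.74. The remaining 15 had 0 to 1 wild-type read and 0 to 5 RNAi reads, and 6 of the 22 had no read in either.

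**Figure D3:**
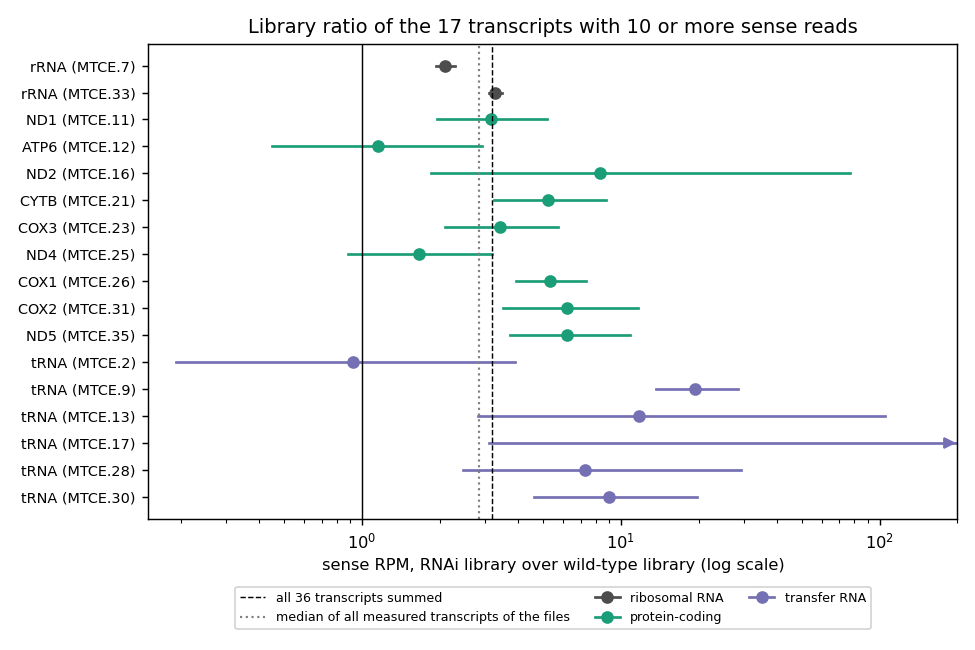
Ratio of sense RPM, RNAi over wild-type library (log axis), for the 17 mitochondrial transcripts with 10 or more sense reads over both libraries. Points are ratios and lines exact 95% intervals, the arrow marks MTCE.17 with 0 wild-type reads, the dashed line is the ratio of 3.17 of all 36 transcripts summed, and the dotted line is the 2.83-fold median of all measured transcripts. MTCE.9 stands at 19.4, and ATP6, ND4 and MTCE.2 have intervals that include 1.

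Summed over the 36 transcripts, sense levels were 353 RPM (wild type) and 1118 RPM (RNAi), a ratio of 3.17 (3.03 to 3.32). Among the 10934 transcripts of all classes with 10 or more sense reads over both libraries, the median ratio was 2.83-fold, or 1.50 on the log2 scale, and 95.2% had a ratio above 1. Of the 17 mitochondrial transcripts measured in this way 16 had a ratio above 1, and their median log2 ratio was 2.41, or 2.37 with the zero of MTCE.17 set to 3 reads. Such a median was not particular to them. It was 3.67 for the tables' ribosomal RNAs, 2.44 for transfer RNAs, 2.40 for the class ncRNA and 2.36 for microRNAs. The other classes had medians from 0.92 to 1.88, with 1.44 for protein-coding transcripts. Interval by interval, 14 of the 17 lay above equal levels, beside 62.7% of all transcripts measured, 3 included it and 0 lay below, beside 0.741%. With TMM or median-of-ratios 9 lay above and 1, MTCE.7, below. With microRNA sense reads 5 lay above and 3 below.

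A rule of size was used in place of a test: 10 RPM or more in either library, a difference of 4-fold or more, and an interval that stays beyond 2-fold. It was met by 6 of the 17, all higher in the RNAi library (MTCE.9, MTCE.30, COX1, COX2, CYTB and ND5), beside 5.16% of all transcripts measured, and by 0 in the lower direction, beside 0.183%. The 6 are 35.3% of the 17. The minimum of 10 RPM equals 76.9 wild-type or 55.4 RNAi reads, more than the 10 that made a transcript measured. Shares meeting the rule therefore also depend on how many reads the transcripts of a set have, which was not matched between sets. In the higher direction 69.6% of measured ribosomal RNAs, 52.3% of microRNAs, 22.5% of snoRNAs and 19.3% of transfer RNAs met it. The other classes had 0% to 11.8%, with 3.88% for protein-coding transcripts. The level of both the sum and the count rests on the scaling. With edgeR's TMM factors, which shift every log2 ratio by −1.40 and the median of all transcripts to 0.10, the summed ratio was 1.21 and only MTCE.9 met the rule. With microRNA sense reads as the scale the summed ratio turned to 0.920, and again 1 transcript met the rule.

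The make-up of the class does not depend on the scaling. Transfer RNA reads went from 59 of 2712, or 2.18% (1.66 to 2.80), in the wild-type library to 619 of 6192, or 10.00% (9.26 to 10.8), in the RNAi library. Relative to the mitochondrial ribosomal RNAs they were 5.20-fold higher (3.96 to 6.82), and without MTCE.9 they were 2.84-fold higher (1.85 to 4.35). Protein-coding reads went from 7.15% (6.21 to 8.19) to 9.88% (9.15 to 10.7), 1.56-fold higher (1.32 to 1.85) relative to the ribosomal RNAs.

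**Figure D4:**
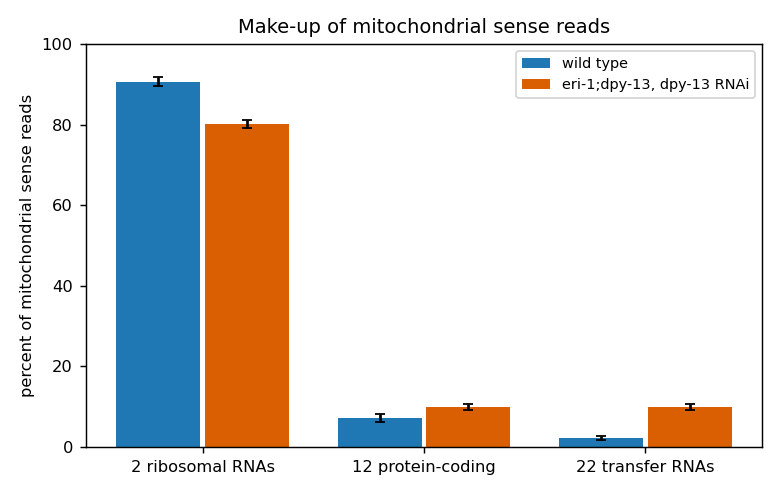
Percentage of mitochondrial sense reads on the ribosomal RNAs, the protein-coding transcripts and the transfer RNAs, in the wild-type (blue) and RNAi (orange) library. Error bars are exact 95% intervals of 1 library each. Ribosomal RNAs go from 90.7% to 80.1% and transfer RNAs from 2.18% to 10.00%.

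Each kind of mitochondrial RNA was set beside the nuclear-encoded RNA of the same kind, again free of scaling. Mitochondrial protein-coding reads were 0.0775% of the sense reads on the tables' protein-coding class (wild type) and 0.140% (RNAi), 1.81-fold higher (1.54 to 2.12). Without nrde-3, whose tagged copy both strains carried and which had 45147 and 46985 sense reads, the factor was 1.66 (1.41 to 1.95). Mitochondrial transfer RNA reads went from 2.13% to 5.64% of the reads on the transfer RNA class, 2.64-fold higher (2.02 to 3.47), but without MTCE.9 the factor was 1.44 (0.941 to 2.21), an interval that includes equal change. Mitochondrial ribosomal RNA reads were 2.12-fold higher (2.02 to 2.23) relative to the ribosomal RNA class. That factor rested on rrn-3.1, a gene whose near-identical copies can share its reads. It had 3209755 and 2277935 sense reads, and without it the factor was 1.03 (0.980 to 1.08).

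The nuclear genes of mitochondrial proteins had a summed sense ratio of 2.79 (2.64 to 2.95), below the 4.38 (3.72 to 5.18) of the protein-coding mitochondrial transcripts, and the intervals did not overlap. By group the separation was partial. Mitochondrial ribosomal proteins (3.08 to 4.17) and complexes I (2.91 to 4.12), II (2.64 to 4.37) and III with cytochrome c (2.54 to 3.79) overlapped that interval. Complex IV, ATP synthase, import and chaperones, and mitochondrial DNA upkeep and expression lay below it. With isoforms summed, 85 of the 124 genes had 10 or more sense reads. The rule of size was met by 4 of them with more reads in the RNAi library, beside 7.54% of the 7591 genes with as many reads, and by 0 with fewer, beside 0.263%. Their median log2 ratio was 1.54, against 1.53 for all genes. The 4, named after their values were seen, were nuo-5 and gas-1 of complex I, sdha-1 of complex II and cox-5A of complex IV. The 5 with the most sense reads were atp-1 with 245 and 423, atp-2 with 214 and 376, the chaperone hsp-6 with 120 and 222, nuo-5 with 48 and 152, and the chaperone hsp-60 with 66 and 123. Their antisense reads were 14 and 51 for atp-1 and 2 and 42 for hsp-60, each more than the whole mitochondrial genome gave.

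Per kilobase, the Spearman correlation between the libraries was 0.66 over the 36, and the Pearson correlation of log2(RPM per kilobase + 1) was 0.83. The points share the libraries and the short lengths of the transfer RNAs, and many are at 0, so these values are descriptions.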

How the data were processed

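The measurements were reads of small RNAs recovered with tagged NRDE-3 from embryos, in 2 libraries. The authors deposited raw counts per transcript, sense and antisense in separate columns. Per the series' design text, Bowtie2 was run with its default settings against the transcriptome of WS243. The Bowtie2 version and the treatment of reads that match several places are not given in the sources used here, so reads shared by overlapping or near-identical genes are uncertain. The tables were read by position. The 2 incomplete lines of the wild-type table (2 reads) and 3 of the RNAi table (9 reads) were left out.

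RPM is sense reads per 1000000 counted reads of both strands. Ratios are RNAi over wild type, with exact 95% Clopper-Pearson intervals. Log2 ratios had 0.5 added to each count. A transcript was measured with 10 or more sense reads over both libraries. A count of 0 was set to 3 reads for folds from a count of 0 and for the limits on antisense shares. The exact bounds are given beside both. PCR reads without molecular identifiers are not independent molecules, so intervals cover counting error only. Coordinates and lengths came from Ensembl 115 (WBcel235) by gene identifier (36 of 36 matched), and protein symbols from RefSeq genes of the same build at the same positions. All protein-coding transcripts, both ribosomal RNAs and the transfer RNAs with the most reads or the ratios farthest from the class were named. Members and lists were chosen with earlier results of these data known. Of the 68 listed names of nuclear genes and microRNAs 67 were matched, besides ribosomal proteins taken by prefix. The interval and size-rule code was tested on simulated counts. A planned search for mitochondrial sequence in the nuclear genome was not made, and no sequences are printed. Tools were Python 3.11.15, scipy 1.17.1 and edgeR 4.0.16 (TMM factors only).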

Additional observations from a re-analysis of the deposited data

How the results depend on the processing

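Both libraries were single, so counting error is the whole of the error given, and no paired analysis was possible because each group held 1 sample and no test was made. Scaling moved every ratio alike. The summed sense ratio of 3.17 became 1.21 with TMM, 1.14 with median-of-ratios, 3.84 with reads outside ribosomal RNA, 2.26 with sense reads and 0.920, the reverse direction, with microRNA sense reads. It was 6.76 without the mitochondrial ribosomal RNAs, and 2.97 without MTCE.9, a setting chosen after seeing the data. The median log2 ratio of 2.41 became 1.01 with TMM, 0.93 with median-of-ratios and 0.62 with microRNA reads, against 0.10, 0.03 and −0.29 for all transcripts. The medians of the other classes shifted by the same amounts. The 6 transcripts meeting the size rule became 1, 1 and 1 under these scalings and 3 with sense reads. Intervals above equal levels went from 14 to 9 with TMM, 9 with median-of-ratios and 5 with microRNA reads, a comparison added after seeing the data. Of single transcripts, MTCE.7 turned to 0.8001, 0.758 and 0.611 under the same scalings. With microRNA reads MTCE.11 (ND1) went to 0.914 (0.567 to 1.51), MTCE.23 (COX3) to 0.990 (0.607 to 1.66) and MTCE.33 to 0.952 (0.895 to 1.01). The intervals of ND1, COX3 and MTCE.33 include equal levels. The antisense shares were 0% in both libraries without the transcript with the antisense read, and 0.394% in the wild-type library without ribosomal RNAs. The mitochondrial share of the libraries was 0.167% and 0.641% of reads outside ribosomal RNA, and 0.0636% and 0.144% of sense reads. The Spearman correlation of raw reads was 0.83. Under the other alternatives the medians stayed between 1.92 and 2.68, the size-rule count between 4 and 7, and the summed ratio between 3.04 and 3.17.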
